A study of Mus musculus with 2 samples.

Results

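The mitochondrial respiratory chain and ATP synthase were followed through 96 genes, measured by 192 probe sets, among 18193 genes measured in all. A gene was included when a probe set was annotated to it alone and its symbol, current or older, began with Nduf, Uqcr or Atp5, lay between Cox4 and Cox8 with any suffix, or was Cycs, Cyc1 or a gene from Sdha to Sdhd. The rule itself uses symbols and no measured value. Of the 96 genes, 83 encode structural subunits: 34 of complex I, 4 of complex II, 9 of complex III, 18 of complex IV and 17 of complex V, with cytochrome c counted by itself. Ndufa4 was placed in complex IV, of which it is a subunit, and Cox7a2l, which helps to join complexes into supercomplexes, was counted there as well. The other 13 genes are 8 assembly factors of complex I (Ndufaf genes), the ATP synthase inhibitor Atpif1, the Ndufa4 paralog Ndufa4l2, and Dmac2, Dmac2l and Emc8, which entered through older symbols.

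The respiratory chain sits in the inner mitochondrial membrane. Complexes I and II pass electrons from NADH and succinate to ubiquinone, complex III hands them to cytochrome c, complex IV passes them on to oxygen, and complex V uses the proton gradient built on the way to make ATP. Most subunits are encoded in the nucleus, which is where the genes described here lie, and heart muscle carries the chain at a high density because it beats on ATP made by oxidation. Doxorubicin (Dox), an anthracycline used against tumours, is known to disturb mitochondria of the heart, where it binds cardiolipin of the inner membrane and takes up electrons from complex I.

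RNA of primary mNVCM, the ventricular cardiomyocytes of newborn C57BL6/J mice at 2 days after birth, was hybridised to 2 Affymetrix arrays, 1 per condition. In the hAFS-CMHypo + Dox condition, mNVCM were pre-incubated for 3 h with hAFS-CMHypo, the secretome that human amniotic fluid stem cells release into their medium under hypoxia, and were then exposed to 1 μM Dox. In the Dox condition, mNVCM received 1 μM Dox without pre-incubation. No array of cells without Dox was analysed here, so all values compare cells that had received the drug. The labels give 6 h of Dox for hAFS-CMHypo + Dox and 21 h for Dox, whereas the methods of the study give the same duration for both. If the labels hold, the pre-incubation and the hours of Dox cannot be told apart in any value below.

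Values are log2 expression made by robust multi-array averaging (RMA), and the log2 ratio is hAFS-CMHypo + Dox minus Dox, so a negative ratio means a lower signal after pre-incubation. With 1 array per condition there is no replicate check, no standard error and no test, and precision is limited by the number of arrays. Values ranged between 2.37 and 14.99 on the hAFS-CMHypo + Dox array and between 2.39 and 15.05 on the Dox array, with a median of 5.10 on each, and Pearson's r between the arrays was 0.995 across probe sets, which are not independent replicates. All 12 cardiomyocyte markers were as bright as the median probe set or brighter, so the defining markers of the labelled cell type were present. Markers of other cell types were present too, and the log2 of their summed signal is given with hAFS-CMHypo + Dox first and Dox second. All 7 fibroblast markers reached the median signal (13.90 and 13.94), as did 3 of 4 smooth muscle markers (14.76 and 14.72). So did 5 of 6 endothelial markers (11.10 and 11.06) and 4 of 5 macrophage markers (9.84 and 9.61). Neither of the 2 erythroid markers measured reached the median signal.

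Subunit transcripts of the chain differed little between the arrays, and most of the small differences ran the same way. Of 83 subunit genes, 66 (79.5%) had a log2 ratio below 0, against 48.7% of all genes, and their median was -0.05, a signal lower by 3.36% after pre-incubation, against 0.01 over all genes. In RNA from whole cultures, fewer cells of a type and less RNA per cell cannot be told apart. The ratios lay close together: 57 subunits (68.7%) were within 0.1 of 0, against 37.0% of all genes, and their SD over genes was 0.0951, against 0.275. Most genes are dimmer than the subunits, and genes of like brightness are compared below. A difference of at least 1.2-fold was counted as past the threshold, and 1 subunit was higher (Cox7b2), where the background was 13.1% of all genes, and 3 were lower (Ndufs7, Ndufb10 and Sdhd), where the background was 11.0%. No subunit reached the 2-fold threshold of the study in either direction, with 0.506% of all genes higher and 0.214% lower by that much.

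**Figure D1:**
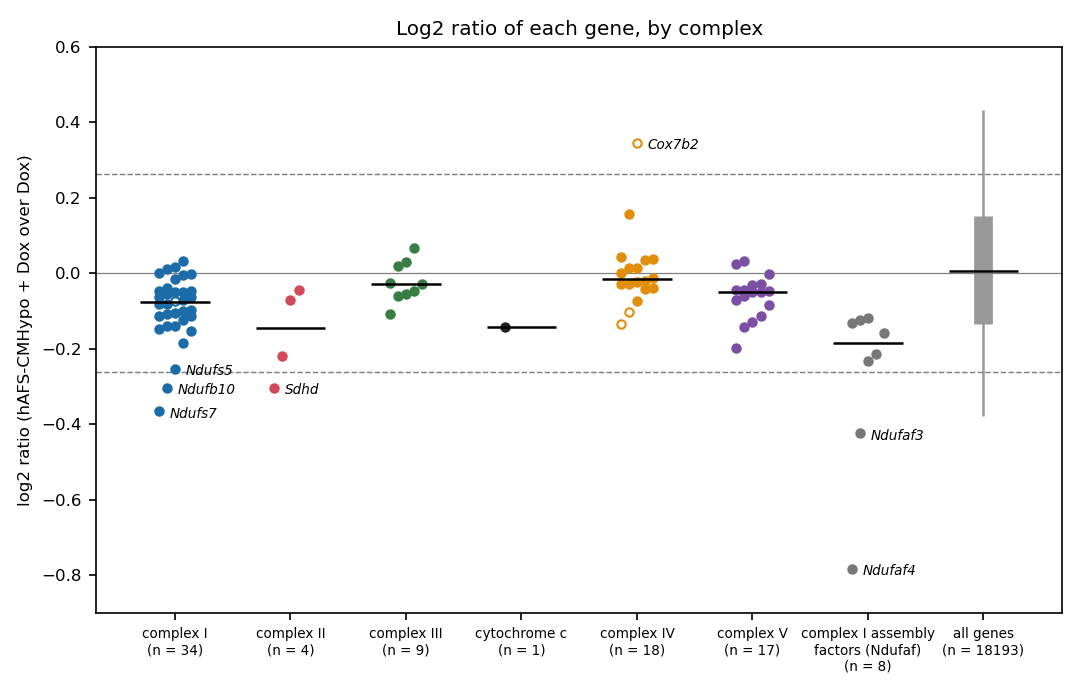
Log2 ratio (hAFS-CMHypo + Dox over Dox) of each gene, by complex. Each point is a gene, open points have a signal below the median on both arrays, black lines are medians, dashed lines mark 1.2-fold, and for all 18193 genes the grey bar spans percentiles 25 to 75 and the grey line percentiles 5 to 95. Complex I lies mostly below 0 with a median of -0.08, complex IV is centred near 0 with a median of -0.02, and Ndufaf4 is lowest at -0.78.

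Ratios spread less at bright probe sets, with an SD of 0.32 over genes outside the rule at a mean log2 signal of 6 to 8 and of 0.27 at 8 to 12, and the subunits were among the brightest. A mean log2 signal of 12 or more was found for 72 of them, which made up 13.0% of the 555 genes at that level. Signals of different probe sets do not rank transcripts, so this is a statement about the probes. Among genes of this brightness, 59 of the 72 subunits (81.9%) had a ratio below 0, with a median of -0.05 and an SD of 0.0739, against 53.9% of the 482 genes outside the rule, with a median of -0.01 and an SD of 0.19. Of the 72, 53 (73.6%) were within 0.1 of 0, against 61.4% of the 482. By 1.2-fold, 2 (2.78%) were lower, against 6.02% of the 482, and none was higher, against 3.53%. These shares lay closer together than those against all genes. The smooth trend of the ratio on signal over all genes was at -0.02 at the subunits' median signal, a mean log2 of 13.3.

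**Figure D2:**
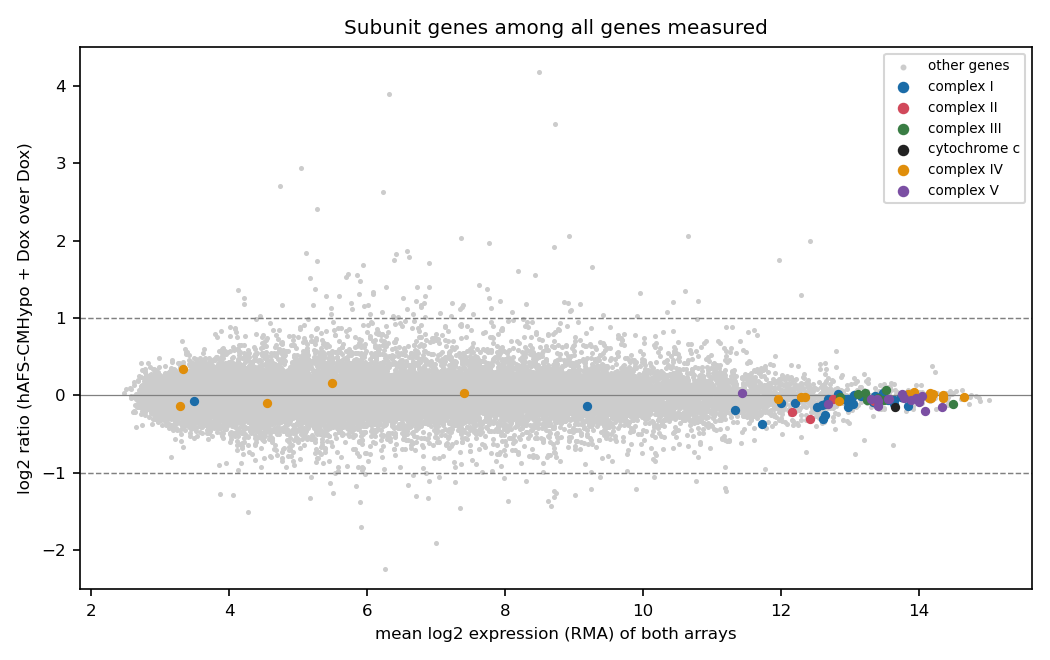
Log2 ratio (hAFS-CMHypo + Dox over Dox) against the mean log2 expression of both arrays, 1 point per gene, with subunits coloured by complex and dashed lines at 2-fold. Most subunits sit at the bright end in a narrow band between -0.37 for Ndufs7 and 0.07 for Uqcr11, with the dimmer Cox7b2 at 0.35 and Cox4i2 at 0.16 above it.

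Cardiomyocyte markers also lay mostly below 0. Of the 12 markers, 11 had a ratio below 0, with a median of -0.11 and a range of -0.57 for Pln, the phospholamban that restrains the calcium pump, to 0.00 for Myl3, a myosin light chain. Their summed signal was 17.80 with hAFS-CMHypo + Dox and 17.90 with Dox on the log2 scale. The other lists lay on both sides of 0, with medians of -0.13 for 7 fibroblast, 0.13 for 4 smooth muscle, 0.04 for 6 endothelial and 0.33 for 5 macrophage markers. Their part in the subunits' values was not tested.

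The lowest ratios in the assembly factors, in the catalytic core of complex I and in complex II belonged to Ndufaf4, Ndufs7 and Sdhd, and their promoters are shown because subunit genes are known to share binding motifs of a few factors there. The windows run from 250 bases before to 50 after the RefSeq start (GRCm38.p6) and read 5′ to 3′ on the strand of the gene, with capitals on matches to the motifs of NRF1 (GCGCANGCG), ETS factors such as GABP (CCGGAAG) and YY1 (AAGATGGCG), searched on both strands.
Ndufaf4 (chr4:24897833-24898132, plus strand): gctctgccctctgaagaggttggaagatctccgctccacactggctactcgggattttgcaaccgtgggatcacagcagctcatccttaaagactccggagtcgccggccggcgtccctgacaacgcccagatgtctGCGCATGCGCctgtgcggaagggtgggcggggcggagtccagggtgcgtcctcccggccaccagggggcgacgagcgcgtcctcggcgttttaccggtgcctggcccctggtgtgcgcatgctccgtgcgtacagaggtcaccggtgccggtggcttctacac
Ndufs7 (chr10:80249199-80249498, plus strand): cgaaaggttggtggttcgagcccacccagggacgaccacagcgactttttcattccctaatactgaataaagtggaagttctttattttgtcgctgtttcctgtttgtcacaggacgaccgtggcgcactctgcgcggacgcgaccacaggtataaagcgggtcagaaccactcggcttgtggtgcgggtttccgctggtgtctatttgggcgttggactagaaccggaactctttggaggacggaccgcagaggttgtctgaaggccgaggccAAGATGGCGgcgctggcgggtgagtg
Sdhd (chr9:50603800-50604099, minus strand): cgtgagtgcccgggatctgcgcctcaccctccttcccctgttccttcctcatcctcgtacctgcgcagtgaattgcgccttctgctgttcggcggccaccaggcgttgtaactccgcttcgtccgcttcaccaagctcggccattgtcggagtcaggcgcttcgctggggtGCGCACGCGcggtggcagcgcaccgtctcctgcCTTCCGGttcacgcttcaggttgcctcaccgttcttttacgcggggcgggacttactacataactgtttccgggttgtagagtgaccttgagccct
The Ndufaf4 window held overlapping NRF1 matches on both strands, the Ndufs7 window a YY1 match just after the start, and the Sdhd window an NRF1 and an ETS match before it. RefSeq promoters were matched for 68 of the 83 subunits (73 windows). The NRF1 motif was found in 20 of the 73 windows (27.4%), against 6.25% of all 32851 promoters of this length, the ETS motif in 17 (23.3%), against 8.86%, and the YY1 motif in 6 (8.22%), against 1.40%. Subunits with and without a match had close medians: the median was -0.07 for 19 genes with an NRF1 match and -0.05 for 49 without, -0.05 for 17 with an ETS match and -0.06 for 51 without, and -0.07 for 6 with a YY1 match and -0.05 for 62 without. A match is a description of letters and was not tested as a binding site.

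Complex I, the NADH dehydrogenase at the entry of the chain, had a median of -0.08 over 34 genes, 30 of them below 0. No gene was higher by 1.2-fold, against 13.1% of all genes, and 2 (5.88%) were lower, fewer than the 11.0% of all genes. Ndufs7, a core subunit that holds the last iron-sulfur cluster before ubiquinone, read 11.55 with hAFS-CMHypo + Dox and 11.91 with Dox, a log2 ratio of -0.37 or 22.4% less signal, and its other probe set gave -0.25. Ndufb10, an accessory subunit of the membrane arm, read 12.46 with hAFS-CMHypo + Dox and 12.76 with Dox (ratio -0.30, 19.0% less signal), from the only probe set it had. Ndufs5, another accessory subunit, fell just short of the threshold with 12.52 after pre-incubation and 12.78 with Dox alone (ratio -0.25), while a probe set that it shares with its pseudogene gave -0.07. At the other end, Ndufb8, a membrane arm subunit often used as a marker of assembled complex I, read 13.50 with hAFS-CMHypo + Dox and 13.47 with Dox (ratio 0.03), and its probe sets spanned -0.0029 to 0.03.

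Within complex I the Ndufs genes, most of which belong to the arm that reaches into the matrix, were furthest below 0. On their brightest probe sets all 6 were below 0 with a median of -0.15, from -0.37 for Ndufs7 to -0.08 for Ndufs8. The 6 probe sets of Ndufs8 spanned -0.14 to 0.06. The 3 Ndufv genes of the NADH-binding module had a median of -0.04, and Ndufv1, which binds NADH and the flavin, read 13.17 on both arrays. The 11 Ndufa genes ran from -0.15 for Ndufa6 to 0.02 for Ndufa7, whose 5 probe sets spanned -0.09 to 0.16. Medians were -0.10 for these Ndufa, -0.06 for 11 Ndufb and -0.10 for 2 Ndufc genes. Ndufab1, the acyl carrier protein of mitochondria, had a ratio of -0.0045, with probe sets from -0.08 to 0.09. A bright probe set that it shares with its pseudogene gave -0.17. The 6 catalytic core genes, all below 0, had a median of -0.09, and the 28 accessory genes had a median of -0.07 with 24 below 0. The SD over genes was 0.128 in the core and 0.0781 among accessory subunits, and the difference between these medians was not tested. Ndufs4, needed for a stable NADH module, showed how far probe sets can part, with -0.19 at its brightest and 0.22 at another.

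Some complex I genes were reached mainly by probe sets that name several genes and so do not count above. The 2 probe sets shared by Ndufb4 and its copies gave -0.06 and -0.14 at log2 signals above 12, whereas the probe set of Ndufb4 alone was dim (3.46 with hAFS-CMHypo + Dox, 3.53 with Dox). The bright probe set of Ndufa11 and its copy read 13.57 with hAFS-CMHypo + Dox and 13.67 with Dox (ratio -0.10), and that of Ndufs6 and its copy read 12.83 with hAFS-CMHypo + Dox and 12.87 with Dox (ratio -0.04). These bright shared probe sets had ratios within the range of the other complex I genes. Further subunits without a probe set of their own were not analysed here.

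Complex II, the succinate dehydrogenase that also belongs to the TCA cycle, had a median of -0.14 over 4 genes, all below 0. This was the lowest of the complexes. With only probe sets of the plain suffix _at (not _a_at, _s_at or _x_at), Sdhc dropped out. The median was then -0.07 over 3 genes, the same to 2 decimals as that of complex I. Its catalytic pair lay near 0: Sdha, the flavoprotein that oxidises succinate, read 12.74 with hAFS-CMHypo + Dox and 12.78 with Dox (ratio -0.04, probe sets -0.07 to 0.01). Sdhb, the iron-sulfur subunit, read 13.32 with hAFS-CMHypo + Dox and 13.39 with Dox (ratio -0.07). The membrane anchors, which bind ubiquinone, lay lower. Sdhc read 12.06 with hAFS-CMHypo + Dox and 12.28 with Dox (ratio -0.22, other probe set -0.12). Sdhd read 12.27 with hAFS-CMHypo + Dox and 12.58 with Dox (ratio -0.30, other probe set -0.21). The anchors had a median of -0.26 and the catalytic pair one of -0.06, a description of 2 genes each.

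Complex III, the cytochrome bc1 complex, had a median of -0.03 over 9 genes, 6 of them below 0. None passed 1.2-fold, against 13.1% of all genes higher and 11.0% lower. At a mean log2 signal of 12 or more, only 3.53% of genes outside the rule were higher and 6.02% lower by as much. The lowest was Uqcrb, a small subunit beside the ubiquinone site, with 14.44 after pre-incubation and 14.55 with Dox alone (ratio -0.11). The highest was Uqcr11, a small peripheral subunit, with 13.56 after pre-incubation and 13.49 with Dox alone (ratio 0.07). Cyc1, the haem subunit cytochrome c1, read 13.23 with hAFS-CMHypo + Dox and 13.20 with Dox (ratio 0.03), and Uqcrfs1, the Rieske iron-sulfur protein, had a ratio of -0.06. The core proteins Uqcrc1 and Uqcrc2 were both at -0.03. Uqcr10 was at 0.02 on its brightest probe set and at -0.29 on another. Cycs, the mobile electron carrier that also triggers apoptosis when it leaves the mitochondrion, read 13.59 with hAFS-CMHypo + Dox and 13.73 with Dox (ratio -0.14), and its probe sets all lay below 0, between -0.44 and -0.06.

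Complex IV, cytochrome c oxidase, had a median of -0.02 over 18 genes, 10 of them below 0. It was the median nearest to 0 except after lowess correction on signal, where complex III was at -0.0050 and complex IV at 0.0081. By 1.2-fold, 1 gene (5.56%) was higher and none lower, against 13.1% and 11.0% of all genes. That gene was Cox7b2, an isoform best known from testis, with 3.50 after pre-incubation and 3.15 with Dox alone (ratio 0.35). Both values were under the 25th percentile of all probe sets (3.80). Without the 3 genes whose signal was below the median, 15 genes remained with a median of -0.01. The lowest, Cox7c, was also dim at 3.21 with hAFS-CMHypo + Dox and 3.35 with Dox (ratio -0.14). Ndufa4 read 13.96 with hAFS-CMHypo + Dox and 13.91 with Dox (ratio 0.04), while its paralog Ndufa4l2, known to be induced by hypoxia, read 6.63 with hAFS-CMHypo + Dox and 6.71 with Dox (ratio -0.07). Cox5b was at -0.02 on the brightest of its probe sets, which spanned -0.37 to 0.01.

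Complex IV has isoforms for heart and muscle beside those of other tissues, and the ratios of these pairs lay near each other. Cox6a2, the heart form, read 13.85 with hAFS-CMHypo + Dox and 13.84 with Dox (ratio 0.01), and the general form Cox6a1 read 14.35 on both arrays, with probe sets from -0.04 to 0.0014. Cox7a1, the heart form, read 12.30 with hAFS-CMHypo + Dox and 12.31 with Dox (ratio -0.01), and Cox7a2 read 14.14 with hAFS-CMHypo + Dox and 14.16 with Dox (ratio -0.03). Cox8b, the heart form in mice, had a ratio of -0.02 and Cox8a one of -0.07. The heart form minus the general form was 0.01, 0.01 and 0.05 for these 3 pairs. All were below the SD of 0.0933 between probe sets of the same subunit. That SD does not measure the spread of a difference between genes or between cultures. Cox4i2, a form tied to low oxygen and lung, read 5.57 with hAFS-CMHypo + Dox and 5.41 with Dox (ratio 0.16), while the general form Cox4i1 was at 0.01. Cox6b2, known from testis, was dim with a ratio of -0.10, and Cox6b1 was at -0.03 (probe sets -0.03 to 0.04).

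Complex V, the ATP synthase, had a median of -0.05 over 17 genes, 15 of them below 0. None passed 1.2-fold, where 13.1% of all genes were higher and 11.0% lower. Among genes outside the rule with a mean log2 signal of 12 or more, these shares were only 3.53% and 6.02%. The catalytic F1 head was close to 0: Atp5a1 (α subunit) read 14.05 on both arrays, and Atp5b (β subunit) read 13.98 with hAFS-CMHypo + Dox and 14.02 with Dox (ratio -0.04). Over the 5 F1 genes the median was -0.04. The 4 genes of the peripheral stalk, which holds the head still, had a median of -0.08. Among them Atp5o, the oligomycin sensitivity subunit that links stalk and head, was the lowest of the complex with 14.00 after pre-incubation and 14.20 with Dox alone (ratio -0.20, other probe set -0.19). Atp5pb, the b subunit of the stalk, was at -0.13.

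The c ring, the rotor that protons turn, is encoded by Atp5g1, Atp5g2 and Atp5g3, whose mature proteins are the same. Atp5g3 read 14.26 with hAFS-CMHypo + Dox and 14.41 with Dox (ratio -0.14). Atp5g2 read 12.63 with hAFS-CMHypo + Dox and 12.74 with Dox (ratio -0.11, probe sets to 0.25). Atp5g1 read 13.38 with hAFS-CMHypo + Dox and 13.45 with Dox (ratio -0.07, probe sets to 0.22). All 3 were below 0 on their brightest probe set, and the positive values came from probe sets below the median signal. The 5 small membrane subunits had a median of -0.05, and the highest gene of the complex, Atp5md, which supports pairing of synthases, read 11.45 with hAFS-CMHypo + Dox and 11.42 with Dox (ratio 0.03). Atpif1, the inhibitor that keeps the synthase from running backwards, read 12.85 with hAFS-CMHypo + Dox and 12.93 with Dox (ratio -0.08).

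**Figure D3:**
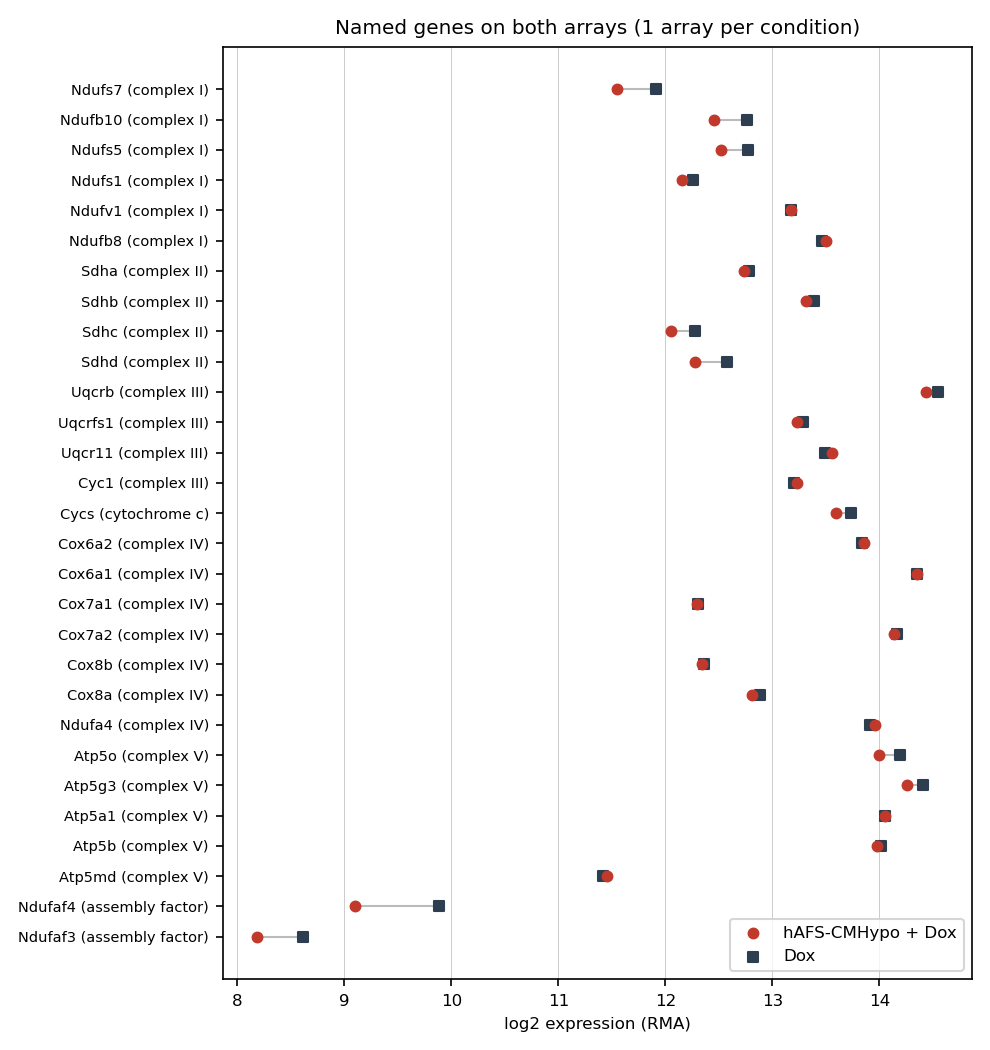
Log2 expression of named genes, with hAFS-CMHypo + Dox as red circles and Dox as dark squares, 1 array each. Most pairs overlap, as for Atp5a1 at 14.05 on both arrays, and the gap is widest for Ndufaf4, at 9.10 with hAFS-CMHypo + Dox and 9.88 with Dox.

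The complex I assembly factors with an Ndufaf symbol lay lower than the complex I subunits, whose median was -0.08. Complex I factors with other symbols, given in the next paragraph, did not all do so. All 8 Ndufaf genes were below 0, with a median of -0.19, or 12.1% less signal after pre-incubation, and 2 were lower by 1.2-fold. Ndufaf4, a factor of early complex I assembly, read 9.10 with hAFS-CMHypo + Dox and 9.88 with Dox, a ratio of -0.78 or 42.0% less signal, and its dimmer probe set read 7.75 with hAFS-CMHypo + Dox and 7.93 with Dox, a ratio of -0.18. Ndufaf3, which acts together with Ndufaf4, read 8.19 with hAFS-CMHypo + Dox and 8.61 with Dox (ratio -0.42). The other 6 lay between -0.23 (Ndufaf2) and -0.12 (Ndufaf5). Among 5351 genes outside the rule with a mean log2 signal of 8 to 12, a range that holds all 8 factors, the median was 0.01, with 47.4% below 0 and 9.89% lower by 1.2-fold. Of the remaining genes included by symbol, Dmac2 and Dmac2l were at -0.21 and -0.26, and Emc8, a subunit of a complex of the endoplasmic reticulum, was at 0.07.

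Other assembly factors, outside the rule, lay on both sides of 0. Of 44 listed, 40 were measured, with a median of -0.07, and 22 (55.0%) were below 0, near the 48.7% of all genes. By 1.2-fold, 6 (15.0%) were lower and 1 (2.50%) was higher, against 11.0% and 13.1% of all genes, so the share of lower genes was near the background. Sdhaf4, which assists the maturation of Sdha, read 8.74 with hAFS-CMHypo + Dox and 9.33 with Dox (ratio -0.59). Hccs, which attaches haem to cytochrome c and c1, read 10.25 with hAFS-CMHypo + Dox and 10.70 with Dox (ratio -0.45, other probe set -0.43). Cox10, an enzyme of haem A synthesis, was at -0.47, Nubpl, which delivers iron-sulfur clusters to complex I, at -0.35, and Coa3, a factor of Cox1 translation, at -0.28. Atpaf1, a chaperone of the F1 head, was at -0.29, with 0.19 on its other probe set. Tmem186, a complex I assembly protein, was the higher one at 0.42, with probe sets from -0.05 to 0.42. Other complex I factors on this list were Foxred1 at -0.20, Tmem126b at -0.09 and Acad9 at -0.06 (probe sets -0.20 to 0.12). Timmdc1 was at 0.0021 and Ecsit at 0.07. With Nubpl and Tmem186, these complex I factors lay on both sides of 0, unlike the Ndufaf genes.

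The TCA cycle and pyruvate dehydrogenase genes, which supply the chain with electrons, ran below 0 like the subunits. Of 17 listed genes 16 were measured, 14 (87.5%) were below 0, against 48.7% of all genes, and the median was -0.12. By 1.2-fold, 2 (12.5%) were lower, near the 11.0% of all genes, and none was higher, against 13.1%. Dlat, the acetyltransferase of pyruvate dehydrogenase, read 10.90 with hAFS-CMHypo + Dox and 11.34 with Dox (ratio -0.44), and its 3 probe sets all gave -0.44. Dld, the lipoamide dehydrogenase shared by pyruvate and oxoglutarate dehydrogenase, was at -0.30, with 0.05 on its other probe set. The highest was Suclg2, a succinyl-CoA ligase subunit, at 0.02 (probe sets -0.18 to 0.02).

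**Figure D4:**
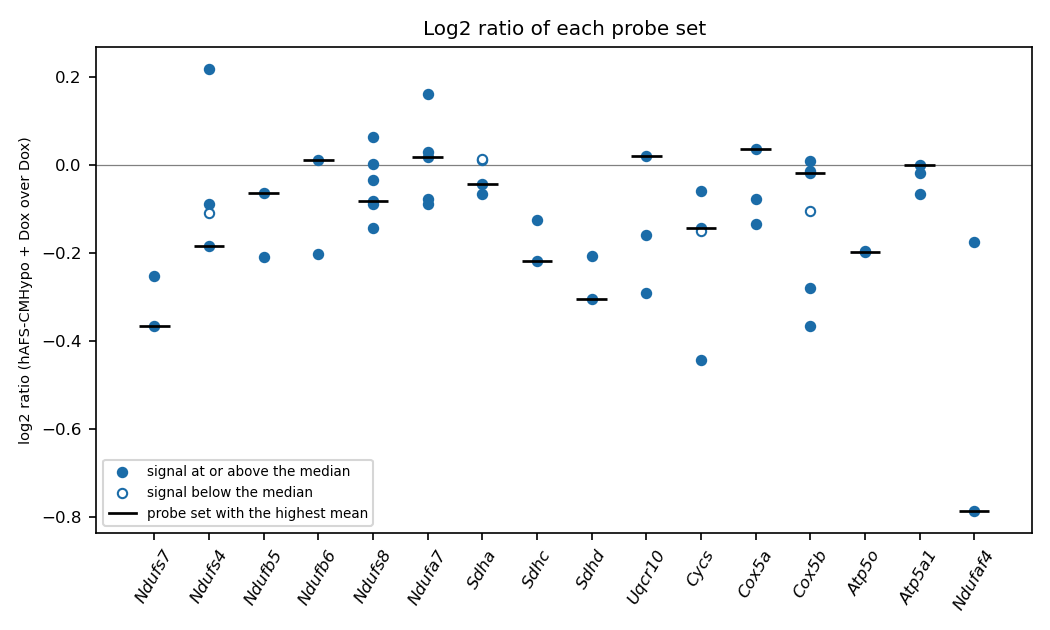
Log2 ratio (hAFS-CMHypo + Dox over Dox) of every probe set of 16 genes, with filled points at or above the median signal, open points below it, and a black line at the probe set that stands for the gene. The probe sets of Ndufs7, Sdhc, Sdhd and Atp5o all lie below 0, whereas those of Ndufs4 spread from -0.19 to 0.22.

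Probe sets of the same gene read the same RNA at other positions and give a measure of how well a ratio repeats within these arrays, though not between cultures. At or above the median signal, 152 probe sets reported on subunits and 117 of them (77.0%) had a ratio below 0, against 48.7% of 20872 such probe sets over all genes. Of these 152, none was higher by 1.2-fold, against 14.9% of such probe sets over all genes, and 7 were lower, against 13.3%, in the genes Ndufs7, Ndufb10, Sdhd, Cycs, Cox5b and Uqcr10. That background holds many dimmer probe sets, whose ratios spread more. For 46 subunits with at least 2 such probe sets, the SD between probe sets of a gene was 0.0933, against 0.214 over 5299 genes. All such probe sets of a gene had the same sign in 26 of the 46 subunits (56.5%), close to the 56.0% of all such genes. In 24 of the 46 (52.2%) every one was below 0, against 26.8% of all such genes. Ndufs7, Sdhd, Atp5o, Atp5pb, Sdhc, Uqcrb and Ndufa10, 7 of the 46 (15.2%), lay below 0 by more than 0.0933 on every such probe set, a share near the 13.9% of all such genes, and no subunit lay above 0 by as much, against 15.9% of all such genes. This cut is the SD of the subunits and is small beside the 0.214 of all such genes, so these shares are not on a like measure.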

How the data were processed

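Gene expression in mNVCM was measured on Affymetrix mouse arrays, 1 per condition. By RMA with quantile normalization, which the submitters' processing notes also name, the authors reduced each probe set to a log2 value, and these deposited log2 values entered the analysis unchanged. Their range was the basis for reading them as log2. The software and the probe set definition were not stated. Conditions came from the labels.

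Symbols of the platform annotation were updated through Entrez IDs with RefSeq genes of GRCm38.p6, which matched 34754 of 34958 probe sets with 1 gene. Of all 45101 probe sets, 932 named several genes and 9211 none. A gene was represented by its probe set of highest mean signal, and its log2 ratio of hAFS-CMHypo + Dox over Dox was described by counts and medians beside those of all genes, since 1 array per condition allows no test. The genes of the rule, the lists and the markers were chosen with earlier results of these data known.

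Named were the highest and lowest gene of each complex, genes past 1.2-fold whose brighter array reached the median signal, tissue isoform pairs, Sdha to Sdhd, Cycs and Cyc1, with the range over probe sets where these differed in sign or by more than 0.5. Further genes were named after their values were seen: Ndufs5, Ndufs4, Ndufs8, Ndufv1, Ndufa6, Ndufa7, Ndufab1, Ndufa10, Uqcrfs1, Uqcrc1, Uqcrc2, Uqcr10, Cox5b, Atp5a1, Atp5b, Atp5pb, the other genes of the rule that are no subunits, and the members of both lists outside it. Alternatives represented a gene by averaging its probe sets or by the one that differed most, or used only probe sets with the plain suffix _at. Others filtered on signal at the median (5.10) and the 25th percentile (3.80), centred the ratios, or corrected them by lowess on signal (span 0.3). Thresholds of 1.1-fold and 1.5-fold were also used. Scripts were tested on simulated data. They ran in Python 3.11.15 with pandas 2.3.3, numpy 2.4.6, matplotlib 3.10.9 and statsmodels 0.14.6.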

Additional observations from a re-analysis of the deposited data

How the results depend on the processing

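The 8 list medians were recomputed under 7 alternatives each, and 55 of these 56 values were below 0. The exception was complex IV, whose median was 0.01 after lowess correction on signal, against -0.02 as reported. Medians ranged from -0.07 to -0.03 for all subunits, -0.10 to -0.06 for complex I, -0.15 to -0.07 for complex II, -0.07 to -0.0050 for complex III, -0.05 to -0.02 for complex V, -0.08 to -0.05 for the assembly factors outside the rule and -0.17 to -0.11 for TCA cycle genes. The share of genes below 0 also depended on the choice. For all subunits it ran from 69.9% after lowess correction to 81.9% with centred ratios, against 79.5% as reported. It ran from 79.4% to 91.2% for complex I and from 66.7% to 77.8% for complex III. With the mean of all probe sets, complex V went from 88.2% to 70.6% and TCA cycle genes from 87.5% to 68.8%. After lowess correction, complex IV went from 55.6% to 33.3%.

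Counts past 1.2-fold depended more on the choice. The count of higher subunits was 1 and became 0 with either signal filter, against 14.7% and 14.1% of all genes. It was 2 at 1.1-fold (Cox4i2 and Cox7b2), where 26.8% of all genes were higher, and 0 at 1.5-fold, where 2.32% were. The count of lower subunits was 3 of 83. With the probe set of largest change it became 7 of 83, where 17.6% of all genes were lower. That choice kept the same 3 and added Cox5b, Cycs, Uqcr10 and Uqcrq. The count was 13 at 1.1-fold, where 24.7% of all genes were lower, and 0 at 1.5-fold, where 1.52% were. With the mean of all probe sets it was 2, against 8.79% of all genes, as Sdhd was no longer past the threshold. With only probe sets of the plain suffix _at it was 4 of 67, against 11.0% of all genes. Only Sdhd was shared with the reported 3, since the probe set that stood for Ndufs7 and the only one of Ndufb10 have the suffix _a_at. No subunit was past 2-fold under any of the 7 alternatives.

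No paired analysis was possible because there was 1 array per condition. Signals below the median of all probe sets, as for Cox7b2, Cox7c, Cox6b2 and the probe set of Ndufb4 alone, limit what can be read from those genes. The hours of Dox in the labels differ between the arrays.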
